A study of Mus musculus with 4 samples.

Results

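The genes described here are 32 genes of the actin cytoskeleton and of the SRF and YAP target programmes, out of 31053 genes in the count tables. They were chosen by name, and all 32 had at least 1 UMI (unique molecular identifier, a tag that marks 1 captured RNA molecule). They are 3 actins, 5 genes of the transgelin and calponin kind, 4 tropomyosins, 2 non-muscle myosin heavy chains, 9 crosslinking and focal adhesion proteins, 2 proteins of actin monomer turnover, Srf and Lmna, and 5 YAP/TEAD targets. Each gene was read in melanoma-like, fibroblast-like, T-like and monocyte/macrophage-like cells of each library.

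The cells came from tumours of B16F10, a pigmented mouse melanoma line, and were profiled by 5' single-cell RNA sequencing after dissociation and removal of dead cells. There were 4 libraries, 1 per group. One group is labelled control, with no treatment stated; the aPD-1 group received an antibody against the T cell checkpoint receptor PD-1. The D+F group received doxorubicin, an anthracycline, along with the ROCK inhibitor fasudil, and the group called D+F+P was given both of these plus the antibody. All groups carried the same line; doses, times and the number of mice behind a library are not given in the sources used here, and no library had doxorubicin or fasudil alone. The study asked how the triple combination changed the tumour microenvironment. With 1 library per group there was no test: each difference below is between libraries, and every 95% interval (exact, from UMI counts) covers counting error only.

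The libraries held 22691663 to 34444856 UMIs in 2525 to 2809 barcodes, and 2214 to 2483 cells passed the filters. Values are given throughout with control first, then aPD-1, then D+F, and D+F+P last. There were 1907, 1108, 1726 and 535 melanoma-like cells. T-like cells numbered 62, 589, 398 and 1355, monocyte/macrophage-like cells 32, 151, 60 and 49, and fibroblast-like cells 15, 44, 7 and 26. Melanoma-like cells of D+F+P were the deepest, with a median of 28542 UMIs against 16267 to 18725.5 elsewhere. The D+F+P library also stood apart in its T-like cells, with a median of 974 UMIs per cell and 52.7% of cells under 10% ribosomal protein UMIs, against 19.4% to 21.6% in the other libraries. Of 10533 barcodes, 69 occurred in more than 1 library. The classes carried their own markers: 7 of 7 pigment cell markers in melanoma-like cells (summed level 9913 to 10640 CPM, the UMIs of a gene per 1000000 UMIs of the class), 8 of 8 fibroblast markers in fibroblast-like cells, 9 of 9 T cell markers and 11 of 11 macrophage markers. In the control library the pigment genes also stood at a median of 28.8% of their melanoma level in monocyte/macrophage-like cells and 33.2% in fibroblast-like cells, against 0.467% to 5.64% in those classes of the other libraries.

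Actin filaments are built from monomers whose supply is set by profilin and cofilin, bundled and anchored by crosslinkers and focal adhesion proteins, and pulled by non-muscle myosin, which ROCK activates downstream of the GTPase RhoA. When monomers are drawn into filaments, the coactivator MRTF is freed to enter the nucleus, where with SRF it binds the CArG box and drives genes of the cytoskeleton itself. Tension also lets YAP and TAZ enter the nucleus and act through TEAD factors, with Ctgf and Cyr61 as standard readouts. In melanoma these programmes are known for their part in invasion and in drug tolerance, and in fibroblasts for the contractile myofibroblast state.

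Promoter letters were read from RefSeq sequences on GRCm38.p6, each running from 250 bases before to 50 bases after a start site, for 29 of the 32 genes (33 promoters). Actb, Tagln and Ctgf had no matched promoter, so theirs were not read. A CArG box on either strand lay in 4 of these 33 promoters (12.1%), those of Srf, Actg1, Vcl and Cnn2, against 1.63% of all 32851 promoters. The letters GGAATG, the core of the TEAD site, lay on either strand in 12 of the 33 (36.4%), against 14.7% of all. No CArG box overlapped a GGAATG match. A match is a description of the letters and shows no binding. The 250 bases before the start are shown for Srf and Actg1, the promoters with a CArG box whose genes are described most fully below, with the box in capitals. Those of Tagln2 and Cyr61 are shown with GGAATG in capitals (as CATTCC, its reverse complement). Among genes of the list with at least 50 UMIs in a pair, these had the largest log2 ratios of the pairs compared in melanoma-like cells. In the order Srf, Actg1, Tagln2 and Cyr61, the sequences lie at chr17:46556163-46556412, minus strand, chr11:120348496-120348745, minus strand, chr1:172499996-172500245, plus strand and chr3:145649986-145650235, minus strand.
Srf: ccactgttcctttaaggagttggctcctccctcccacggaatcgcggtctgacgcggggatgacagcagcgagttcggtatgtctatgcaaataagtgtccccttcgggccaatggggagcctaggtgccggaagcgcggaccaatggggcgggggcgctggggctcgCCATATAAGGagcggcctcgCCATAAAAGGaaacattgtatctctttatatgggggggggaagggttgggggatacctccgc
Actg1: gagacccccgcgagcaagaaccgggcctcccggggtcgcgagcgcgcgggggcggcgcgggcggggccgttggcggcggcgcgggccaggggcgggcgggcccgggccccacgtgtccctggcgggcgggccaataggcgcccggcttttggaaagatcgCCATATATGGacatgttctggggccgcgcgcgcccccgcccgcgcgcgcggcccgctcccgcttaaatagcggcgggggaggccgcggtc
Tagln2: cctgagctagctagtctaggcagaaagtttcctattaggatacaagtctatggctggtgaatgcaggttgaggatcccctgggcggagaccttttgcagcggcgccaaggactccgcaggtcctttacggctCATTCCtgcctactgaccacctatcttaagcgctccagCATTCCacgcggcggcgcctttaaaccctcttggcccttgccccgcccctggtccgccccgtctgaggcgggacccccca
Cyr61: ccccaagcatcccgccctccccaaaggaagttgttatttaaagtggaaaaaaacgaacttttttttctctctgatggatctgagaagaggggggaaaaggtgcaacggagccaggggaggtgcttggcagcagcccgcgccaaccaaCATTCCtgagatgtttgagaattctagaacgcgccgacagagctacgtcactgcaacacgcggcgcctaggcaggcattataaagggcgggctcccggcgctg
The boxes of Srf began 82 and 62 bases before its start, and that of Actg1 began 90 bases before. The TEAD letters began 118 and 80 bases before the start in Tagln2 and 103 bases before it in Cyr61. The RefSeq start of Tagln2 lies inside the gene as GENCODE M21 gives it (from 172500047), so both of its matches do too.

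The cell classes differed in which of these genes they used far more than the libraries did. The contractile genes of smooth muscle and myofibroblasts were near absent from melanoma-like cells. Acta2, smooth muscle alpha-actin, stood at 1.47, 2.59, 1.27 and 1.83 CPM in melanoma-like cells and at 2276, 675, 174 and 382 CPM in fibroblast-like cells. Tagln, transgelin, an actin-binding protein of contractile cells, stood at 0.0917, 0.0959, 0.351 and 0.204 CPM in melanoma-like cells and at 973, 229, 224 and 141 CPM in fibroblast-like cells. Both genes were higher in fibroblast-like than in melanoma-like cells of every library, though in D+F the fibroblast-like values rested on 7 UMIs of Acta2 in 2 cells and 9 UMIs of Tagln in 1 cell. Tpm2, beta-tropomyosin, was at 0.214 to 0.387 CPM in melanoma-like cells against 99.4 to 342 CPM in fibroblast-like cells. Myh10, the heavy chain of non-muscle myosin IIB, was at 0.0351 to 0.0959 CPM in melanoma-like cells and at 21.4 to 38.9 CPM in fibroblast-like cells. Of the 2 heavy chain genes in the list, Myh9 (93.6 to 134 CPM), that of myosin IIA, thus gave nearly all the UMIs in melanoma-like cells. Cnn1, the smooth muscle calponin, gave no UMI in fibroblast-like cells of any library and at most 4 in melanoma-like cells, and Ankrd1, a YAP target, gave at most 2 UMIs in melanoma-like cells and 30.7 CPM in fibroblast-like cells of the aPD-1 library, of which 56.5% came from 1 cell.

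Immune cells used the same cytoskeleton in other proportions. Actb, cytoplasmic beta-actin, stood at 3358, 2340, 2837 and 2250 CPM in melanoma-like cells, at 9392, 8763, 11080 and 8018 CPM in T-like cells and at 9438, 9893, 13360 and 9644 CPM in monocyte/macrophage-like cells. Actg1, cytoplasmic gamma-actin, stood at 5388, 4919, 4809 and 4137 CPM in melanoma-like cells and at 6310, 6071, 6369 and 6072 CPM in monocyte/macrophage-like cells. The number of Actb UMIs per Actg1 UMI was 0.476 to 0.623 in melanoma-like cells, 0.445 to 0.801 in fibroblast-like cells, 0.955 to 1.18 in T-like cells and 1.5 to 2.1 in monocyte/macrophage-like cells, so the ranges of the tumour and stromal classes did not overlap those of the immune classes. Tagln2, transgelin-2, an actin-stabilising protein known from the immune synapse of T cells, stood at 1123, 699, 882 and 697 CPM in T-like cells and at 764, 876, 965 and 1003 CPM in monocyte/macrophage-like cells, against 151 CPM at most in melanoma-like cells. Cyr61, a secreted matricellular protein and YAP target, was highest in fibroblast-like cells (348 to 705 CPM), intermediate in melanoma-like cells (41.5 to 84.1 CPM) and at 0 to 4.49 CPM in T-like cells.

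**Figure D1:**
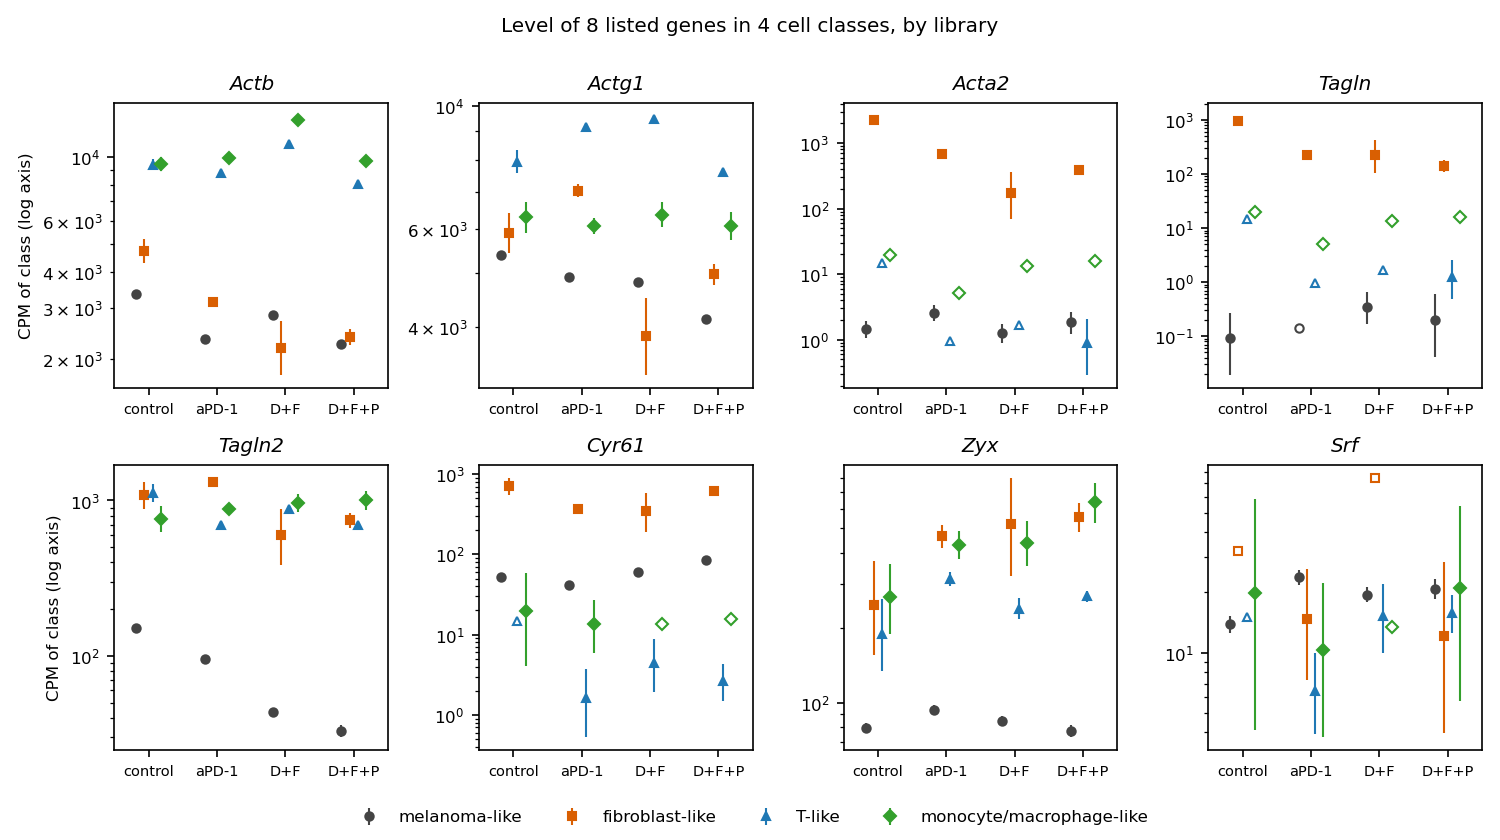
Level of 8 of the genes (CPM of the class, log axis) in each library, with 1 marker per cell class and exact 95% Poisson bars; open markers had under 3 UMIs and are drawn at the level of 3 UMIs. Acta2 and Tagln sit in fibroblast-like cells, Actb is higher in both immune classes than in melanoma-like cells in every library, and melanoma-like Tagln2 steps from 151 CPM in control to 32.8 CPM in D+F+P.

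In melanoma-like cells, 27 of the 32 genes had at least 50 UMIs in each pair of libraries compared; Tagln, Cnn1, Tpm2, Myh10 and Ankrd1 did not. The 27 lay slightly lower in each treated library, with a median log2 ratio against control of -0.11 in aPD-1, -0.12 in D+F and -0.15 in D+F+P, where the median of all genes was -0.06, -0.07 and -0.10 and the 3 comparisons share the control library. Few passed 1.5-fold. In aPD-1 against control 2 were higher (Acta2 and Srf) and 2 lower (Tagln2 and Ctgf), where 4.4% of all genes were higher and 5.05% lower. In D+F against control none was higher and 1 lower (Tagln2), with 4.67% and 4.3% of all genes. In D+F+P against control 3 were higher (Srf, Cyr61 and Amotl2) and 1 lower (Tagln2), with 7.36% and 9.71% of all genes. Between D+F+P and D+F none passed in either direction, with 3.75% and 3.02% of all genes, and in D+F+P against aPD-1 2 were higher (Ctgf and Cyr61) and 1 lower (Tagln2), with 3.59% and 2.8% of all genes. Counts of 0 to 3 among 27 genes are near those shares.

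Doxorubicin and fasudil were added in 2 pairs that share no library, D+F against control and D+F+P against aPD-1. Of the 27 genes, 10 were lower in both pairs with intervals that excluded 0 (37.0%). Another 2 were higher in both (7.41%) and 4 went opposite ways (14.8%). Of all genes, 9.29% were lower in both, 5.66% higher in both and 6.72% opposite. Abundant genes have narrower intervals, so the same was counted among abundant genes alone. Among genes with at least 1000 UMIs in each pair, 10 of 21 members (47.6%) and 16.0% of 3989 genes were lower in both. At that minimum 1 member (4.76%) and 9.28% of the genes were higher in both, and 4 members and 520 of the genes went opposite ways. The 10 were Tagln2, Actb, Actg1, Cfl1, Pfn1, Tpm4, Myh9, Actn4, Pdlim7 and Lmna, and all but Tagln2 were lower by at most 0.30 on the log2 scale in either pair. Over the 8 clusters of the melanoma-like class, each of the 10 was lower in D+F than in control in 5 to 8. In D+F+P against aPD-1, Actg1 was lower in 8, Tagln2 and Cfl1 in 7, and Pfn1, Myh9 and Lmna in 6. Tpm4 was lower in 5 clusters, Actn4 in 4, and Actb and Pdlim7 in 3, and each was higher in the rest. The 2 that were higher in both were Cyr61 and Amotl2, and those that went opposite ways were Cnn3, Flna, Vcl and Zyx.

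**Figure D2:**
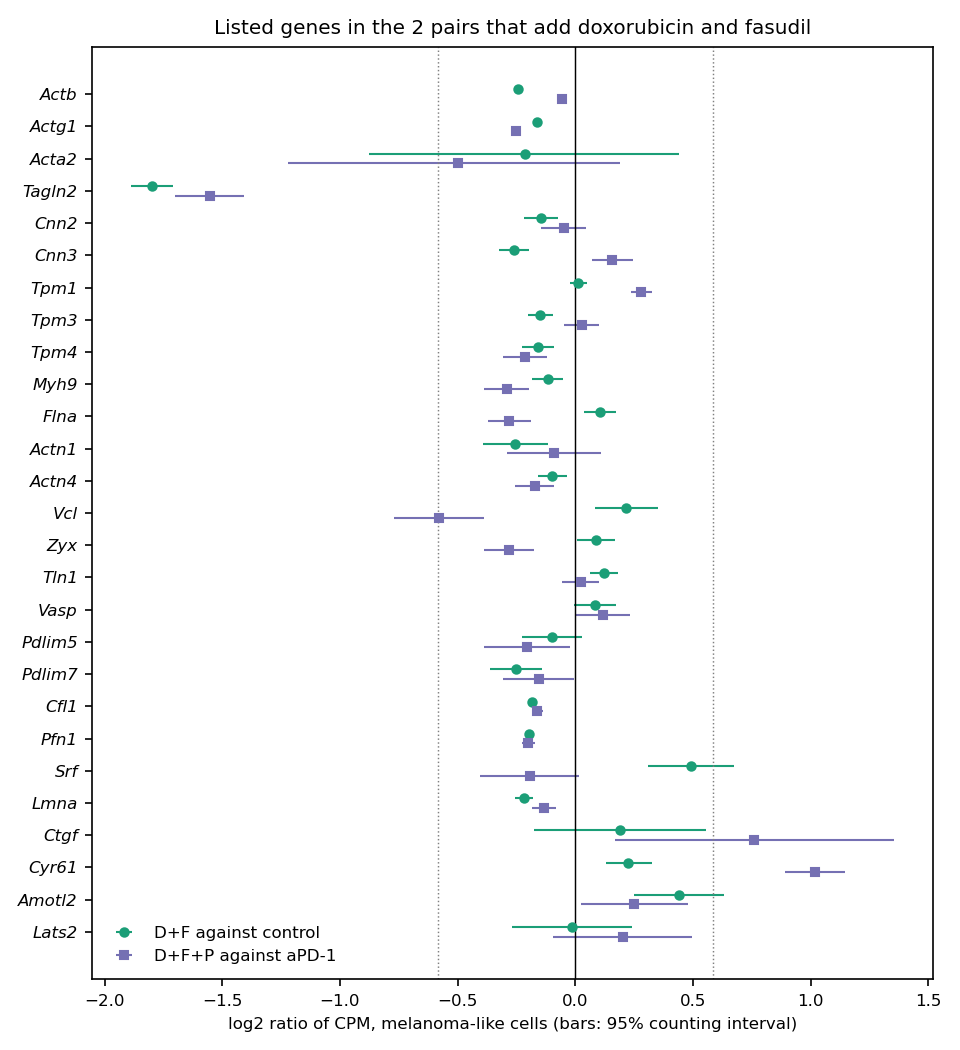
Log2 ratio of CPM in melanoma-like cells for the 27 genes with at least 50 UMIs, in D+F against control (circles) and D+F+P against aPD-1 (squares), with 95% counting intervals; dotted lines mark 1.5-fold. Most genes lie close to 0 or slightly below, Tagln2 lies at -1.80 and -1.55, and Cyr61 lies at 0.23 and 1.02.

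Among the actins of melanoma-like cells, the Actb levels given above put control highest and D+F+P lowest. The log2 ratio against control was -0.52 (-0.54 to -0.51) in aPD-1, -0.24 (-0.26 to -0.23) in D+F and -0.58 (-0.60 to -0.56) in D+F+P, so the library with the antibody alone was lower than D+F. Actb was lower in D+F than in control in 7 of the 8 melanoma-like clusters. In D+F+P against aPD-1 it was lower in 3 and higher in 5. Actg1 stood at -0.13, -0.16 and -0.38 against control in the same order, a smaller difference than that of Actb in each library. Acta2 was 1.77-fold higher in aPD-1 than in control on 54 and 48 UMIs, and its direction turned when each cell was thinned to 1000 UMIs.

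Cofilin and profilin act on the supply of actin monomers. Cfl1, cofilin-1, which severs filaments and is silenced by LIM kinases downstream of ROCK, stood at 1968, 1779, 1732 and 1590 CPM. Pfn1, profilin-1, which loads actin monomers for growth, stood at 1686, 1413, 1472 and 1230 CPM. Control was highest and D+F+P lowest for both, by -0.31 (-0.33 to -0.29) and -0.45 (-0.48 to -0.43) on the log2 scale. Myh9 stood at 134, 115, 123 and 93.6 CPM, with D+F+P lowest at -0.52 (-0.60 to -0.43) against control.

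Tagln2 was the gene of the list that differed most between libraries in melanoma-like cells. The gene lies at chr1:172500047-172507380 on the plus strand (GENCODE M21, GRCm38). Its level was 151 CPM in control (4940 UMIs), 96.3 in aPD-1 (2007 UMIs), 43.4 in D+F (1234 UMIs) and 32.8 in D+F+P (483 UMIs). Both libraries with doxorubicin and fasudil lay below both libraries without them. D+F was 3.48-fold lower than control (log2 -1.80, -1.89 to -1.71), D+F+P was 4.61-fold lower than control (log2 -2.20, -2.34 to -2.07) and 2.94-fold lower than aPD-1 (log2 -1.55, -1.70 to -1.41), and aPD-1 was 1.57-fold lower than control (log2 -0.65, -0.72 to -0.57). D+F+P differed less from D+F (log2 -0.40).

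Ordered from the lowest ratio, Tagln2 was number 11 of 11374 genes in D+F against control and number 9 of 10788 in D+F+P against aPD-1. Melanoma-like cells with a Tagln2 UMI made up 59.3%, 41.3%, 25.2% and 30.3% of the class. At an equal depth of 1000 UMIs per cell the shares were 11.8%, 7.19%, 3.97% and 3.58%, so the order of the last pair changed with depth; 5 to 14 cells per library were too shallow to be thinned. T-like cells, which express the gene, gave 51.2%, 38.0%, 55.1% and 39.4% at that depth. Under the 11 alternative settings the D+F ratio against control ranged from -1.82 to -1.56 and the D+F+P ratio against aPD-1 from -1.63 to -1.07. The level in melanoma-like cells was 11.0% of that in the class with most Tagln2 in control and 3.27% in D+F+P, low enough for free RNA to reach. The 9 T cell markers, summed, stood at 1.25, 5.76, 2.74 and 14.3 CPM in melanoma-like cells. The part of free RNA in the Tagln2 levels was not tested.

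The lower level of Tagln2 in D+F than in control was found in all 8 melanoma-like clusters, with ratios of 0.179 to 0.826. The ratio of 0.826 was that of cluster 10, on only 10 UMIs in control and 14 in D+F. D+F+P lay below aPD-1 in 7 of 8. The exception was cluster 10, the barcodes low in ribosomal protein RNA, with 10 and 19 UMIs in aPD-1 and D+F+P. In cluster 5, led by Cited1 and hypoxia genes, the levels were 211, 142, 52.7 and 29.96 CPM. In cluster 4, led by interferon-induced genes such as Gbp2 and Igtp, they were 146, 75.3, 35.6 and 35.6 CPM. Cluster 4 held 6.71%, 21.9%, 18.9% and 41.9% of the melanoma-like cells, so the make-up of the class differed between libraries. Within 500 kb of Tagln2, 9 other genes had at least 50 UMIs in both pairs, and their log2 ratios ran from -0.51 to 1.14 in D+F against control, with a median of 0.00, and from -0.17 to 0.81 in D+F+P against aPD-1. None of these neighbours was as low as Tagln2.

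**Figure D3:**
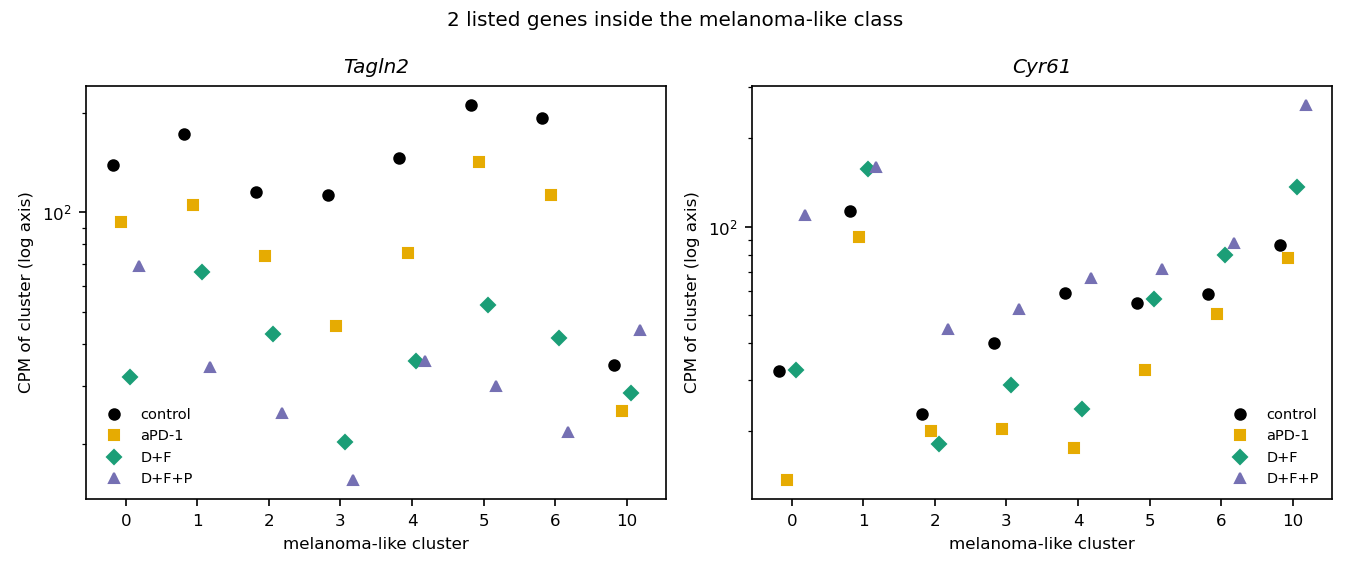
Level of Tagln2 (left) and Cyr61 (right) in each of the 8 melanoma-like clusters (CPM of the cluster, log axis), with 1 marker per library and no error bars. For Tagln2 the control marker lies above the D+F marker in all 8 clusters; for Cyr61 the D+F+P marker lies above the aPD-1 marker in all 8.

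Cnn2 and Cnn3, the other counted genes of the transgelin and calponin kind, differed little over the whole class. Cnn2, a calponin of non-muscle cells, stood at 109, 107, 98.5 and 103 CPM, and Cnn3, acidic calponin, at 146, 119, 122 and 133 CPM. No Cnn2 or Cnn3 value of the class passed 1.5-fold in any pair. By cluster, Cnn2 differed more. In D+F against control it was lower in 6 of 8 clusters, with ratios of 0.405 to 2.95, the highest on 7 control UMIs in cluster 10. In D+F+P against aPD-1 it was higher in 6 of 8, with ratios of 0.77 to 2.7. In cluster 4 Cnn2 stood at 81.4 CPM in control and 35.95 CPM in D+F. Of the tropomyosins, which coat the filament, Tpm1 stood at 416, 430, 419 and 522 CPM, highest in D+F+P (0.33, 0.29 to 0.37, against control). Tpm3 (170 to 193 CPM) was highest in control. Tpm4 (103 to 120 CPM) was near equal in control and aPD-1 and lower in the other libraries.

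None of the 9 crosslinkers and focal adhesion genes passed 1.5-fold in melanoma-like cells, and their median log2 ratio was 0.09 in D+F against control and -0.17 in D+F+P against aPD-1. Vcl, vinculin, which links talin to actin under load, stood at 27.5, 34.2, 31.9 and 22.9 CPM. It was highest in aPD-1 and lowest in D+F+P, so that the ratio was 0.22 (0.08 to 0.35) in D+F against control and -0.58 (-0.77 to -0.39) in D+F+P against aPD-1. Zyx, zyxin, a sensor of strained filaments, had the same order on a smaller scale, with 79.8, 93.9, 84.9 and 77.2 CPM, as did Flna, filamin A, with 113, 129, 121 and 106 CPM. Tln1, talin-1, which activates integrins, stood at 145 to 158 CPM, Vasp, a filament elongation factor, at 66.6 to 74.4 CPM, and the alpha-actinins at 23.6 to 31.4 CPM (Actn1) and 127 to 151 CPM (Actn4).

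Srf, the transcription factor itself, was higher in every treated library than in control. Its levels were 13.8, 23.7, 19.5 and 20.8 CPM, with log2 ratios against control of 0.78 (0.59 to 0.97) in aPD-1, 0.49 (0.31 to 0.68) in D+F and 0.59 (0.37 to 0.80) in D+F+P, all against the same library. The direction was the same in 8 of 8 melanoma-like clusters for each of these. With only cells that had no UMI of the cycling genes Mki67, Top2a, Cdk1 and Ccnb1, the ratio was 0.42 in aPD-1 and 0.20 in D+F+P; cells with such a UMI made up 78.1%, 63.4%, 61.8% and 66.9% of the class. Actg1, whose promoter also holds a CArG box, was lowest in the D+F+P library, and Vcl and Cnn2 did not follow the order of Srf. Lmna, which encodes lamins A and C of the nuclear envelope, stood at 399, 363, 343 and 332 CPM, highest in control.

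Of the YAP/TEAD targets, Cyr61 was the one with most UMIs in melanoma-like cells. It stood at 51.8, 41.5, 60.6 and 84.1 CPM, with D+F+P highest and aPD-1 lowest. The log2 ratio was 0.23 (0.13 to 0.32) in D+F against control, 1.02 (0.89 to 1.15) in D+F+P against aPD-1 and 0.70 (0.59 to 0.81) in D+F+P against control. Cyr61 was higher in D+F+P than in aPD-1, and than in control, in 8 of 8 clusters, by 1.73- to 8.09-fold and by 1.13- to 3.43-fold. The highest value of both ranges came from cluster 0, with 59 UMIs in 15 cells of D+F+P. In D+F against control, Cyr61 was higher in 5 clusters and lower in 3, with ratios of 0.402 to 1.58. In cells without a cycling gene UMI the D+F+P ratio against control turned to -0.17 and that against aPD-1 was 0.41. At 1000 UMIs per cell, 5.73%, 5.10%, 6.19% and 8.49% of melanoma-like cells had a Cyr61 UMI, and 0% to 0.651% of T-like cells, a class that should lack it. The 0 of 43 control T-like cells allows a share of up to 6.98%. Unthinned, the shares were 30.7% to 53.3% in melanoma-like and 0% to 2.01% in T-like cells, at median depths of 16267 to 28542 and 974 to 4103 UMIs.

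The other YAP targets were rarer. Amotl2, an angiomotin-family protein that binds YAP, stood at 12.8, 16.9, 17.4 and 20.2 CPM, lowest in control, with 0.44 (0.25 to 0.63) in D+F against control and 0.25 (0.02 to 0.48) in D+F+P against aPD-1. Ctgf, a matricellular protein and the relative of Cyr61, rested on 46 to 129 UMIs per library and stood at 3.94, 2.21, 4.50 and 3.73 CPM, lowest in aPD-1. Its ratio in D+F+P against aPD-1, 0.76 (0.17 to 1.36), turned to -0.53 at 1000 UMIs per cell. Lats2, the kinase that inhibits YAP and is itself a YAP target, stood at 8.55, 10.3, 8.47 and 11.9 CPM and passed 1.5-fold in no pair. The median log2 ratio of the 4 targets that were counted was 0.21 in D+F against control and 0.51 in D+F+P against aPD-1.

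Over the 8 melanoma-like clusters, with libraries pooled, 23 of the genes had at least 50 UMIs in every cluster, and the median ratio of the highest to the lowest cluster was 2.77-fold, beside 2.58-fold for all 5482 such genes. Vcl (6.62-fold), Cyr61 (6.46-fold), Cnn2 (5.94-fold), Flna (5.51-fold) and Tln1 (5.001-fold) varied most, and Tpm1 and Cnn3 (both 1.36-fold) least. With libraries pooled, Cnn2 was lowest at 38.9 CPM in cluster 3 and highest at 231 CPM in cluster 1, which is led by the hypoxia-induced genes Ero1l, Car9 and Vegfa. Tln1 was lowest in cluster 2, a cycling cluster led by Rrm2 and Cdk1, in each library. Vcl, Flna and Tln1 were highest in each library in cluster 10, whose barcodes had a median of 5.33% ribosomal protein UMIs. The part of RNA quality in those values was not tested. For Cyr61 cluster 10 was highest in D+F+P alone (260.7 CPM), and in control (113 against 86.4 CPM), aPD-1 (92.4 against 77.9 CPM) and D+F (156.8 against 136.6 CPM) cluster 1 lay above it.

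Among 41 other genes of the ROCK, myosin and Hippo pathways, the kinases that fasudil inhibits passed 1.5-fold in no pair in melanoma-like cells: Rock1 stood at 52.9, 51.3, 47.7 and 48.0 CPM and Rock2 at 53.9, 62.6, 61.4 and 55.0 CPM. In D+F against control none of the 41 passed 1.5-fold. The lowest were Rhoc (-0.57), Mylk (-0.52), which phosphorylates myosin light chain, and Rdx (-0.45), radixin, and the highest were Rhob (0.31, 0.21 to 0.40), Limk2 (0.30) and Vgll3 (0.28). In D+F+P against aPD-1, 2 of 40 were lower, Tead4 (-1.15, -1.91 to -0.44) and Myl9 (-0.92, -1.14 to -0.72), a myosin regulatory light chain, and none higher, near the 2.8% and 3.59% of all genes. In D+F+P against control 1 was higher (Rhob) and 6 lower (Rhoc, Mylk, Myl9, Arhgef2, Tead4 and Msn) of 41, where 7.36% and 9.71% of all genes were. Against aPD-1, Rhoc followed at -0.54, while Limk1 (0.32), Rhob (0.26) and Tead2 (0.22) were highest. Rhoc, at 295, 223, 199 and 153 CPM, was lower and Rhob, at 57.5, 74.2, 71.1 and 88.7 CPM, higher in both pairs.

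In fibroblast-like cells only D+F+P against aPD-1 had enough cells for a comparison (26 and 44). Of the 5 transgelin and calponin genes 4 were counted, and 3 of them were lower in D+F+P by 1.5-fold or more. Of the 5 YAP targets 3 were counted, all higher by that much, while Ankrd1 and Lats2 were too rare to be counted. Ankrd1 lay the other way, at 30.7 CPM in aPD-1 and 4.87 CPM in D+F+P, the latter on 2 UMIs in 1 cell. Lats2 stood at 18.7 CPM in aPD-1 and 31.6 CPM in D+F+P. Of 27 genes with at least 50 UMIs, 6 were at least 1.5-fold higher and 6 lower, where 15% of all genes were higher and 13.7% lower, and the median was -0.10 beside -0.04 for all genes. The lower genes were Acta2 (-0.82, -1.09 to -0.56), Tagln (-0.70, -1.15 to -0.26), Tagln2 (-0.81, -1.003 to -0.63), Cnn2 (-0.62, -0.95 to -0.30), Myh9 (-0.66, -0.95 to -0.38) and Pdlim7 (-1.02, -1.54 to -0.53), a PDZ and LIM domain protein of stress fibres. The higher genes were Amotl2 (0.99, 0.26 to 1.73), Vcl (0.97, 0.41 to 1.52), Tpm1 (0.79, 0.60 to 0.98), Cyr61 (0.77, 0.52 to 1.02), Ctgf (0.62, 0.08 to 1.16) and Pdlim5 (0.60, -0.15 to 1.34). Ctgf stood at 385, 86.9, 124 and 134 CPM and Cyr61 at 705, 366, 348 and 623 CPM, both highest in control. The control values came from 15 cells, and 1 of them held 66.7% of the Ctgf UMIs. Without the top cell of each library, Ctgf stood at 142.7 CPM in control and 110.6 CPM in D+F+P, and Cyr61 at 570.3 and 533.5 CPM. At 1000 UMIs per cell Vcl (-0.082), Tpm1 (-0.045) and Cnn2 (0.048) changed sign and Acta2 stood at -0.04.

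A few cells carried the contractile genes. In the aPD-1 library 16 of 44 fibroblast-like cells had an Acta2 UMI, and 1 cell held 52.1% of them; in D+F+P it was 11 of 26 cells, with 35.0% in 1 cell. In control 1 cell of 15 held 56.3% of the Acta2 UMIs, and in D+F all 9 Tagln UMIs came from 1 cell of 7 and the 7 Acta2 UMIs from 2 cells. Leaving out the top cell of each library for each gene, the Acta2 ratio shrank to -0.28. Tagln stood at -0.79, on 91 UMIs in aPD-1 and 27 in D+F+P. The other lower genes were Tagln2 at -0.73, Cnn2 at -0.99, Myh9 at -0.75 and Pdlim7 at -1.28. Of the higher genes, Cyr61 stood at 0.64, Ctgf at 0.68, Amotl2 at 0.86, Vcl at 0.73, Tpm1 at 0.61 and Pdlim5 at 0.52. The summed pericyte and smooth muscle markers were 118, 22.7, 720 and 43.8 CPM in fibroblast-like cells, with Myh11 at 0 in all libraries and Rgs5 at 298 CPM in the 7 cells of D+F. Cells under 10% ribosomal protein UMIs made up 13.6% of the class in aPD-1 and 34.6% in D+F+P. The part of such cells and of pericytes, and that of melanoma RNA in the 15 control cells, was not tested. Of the pathway genes, Rhob (1.65, 1.34 to 1.97), Tead1 (1.20, 0.43 to 1.98) and Wwtr1, which encodes TAZ (1.07, 0.47 to 1.68), were highest in D+F+P against aPD-1, and Rdx (-0.88), Vgll3 (-0.85) and Ppp1cb (-0.84) lowest; 4 of 18 were higher and 3 lower past 1.5-fold, near the shares of all genes given above.

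**Figure D4:**
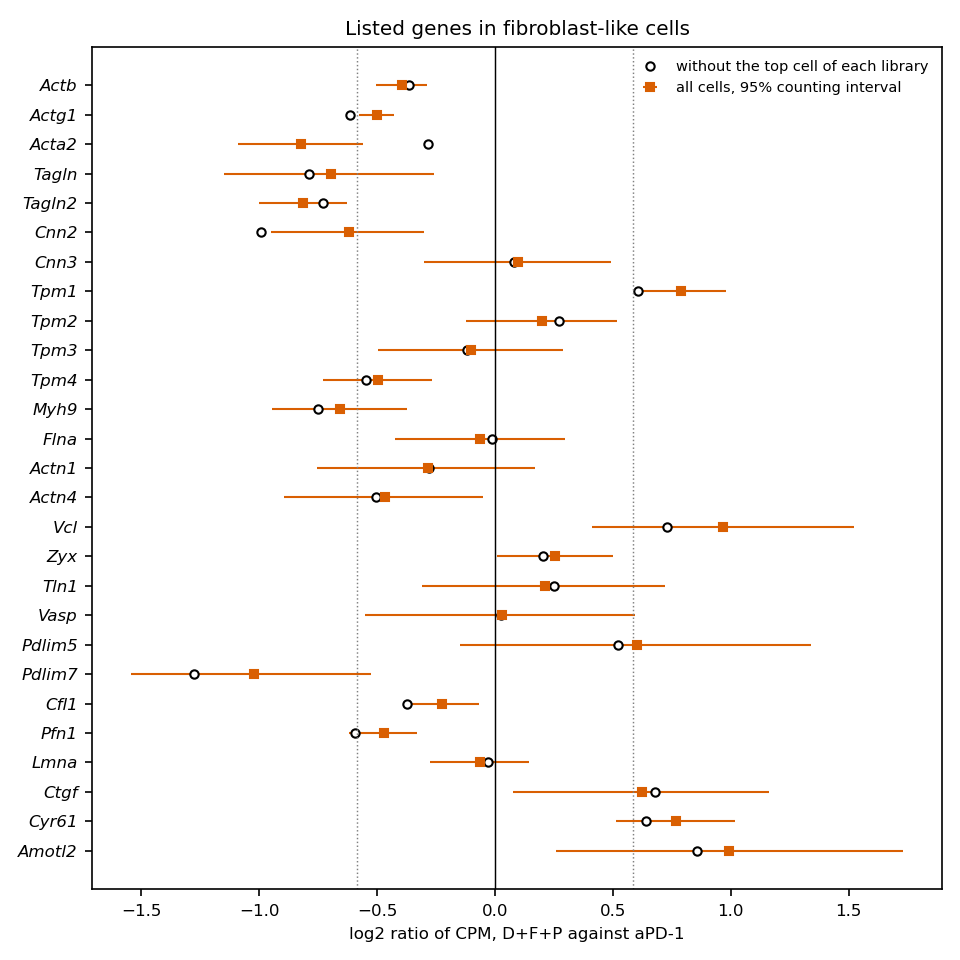
Log2 ratio of CPM in fibroblast-like cells, D+F+P against aPD-1, for the 27 genes with at least 50 UMIs (squares, with 95% counting intervals); open circles give the ratio without the cell of each library that held most UMIs of the gene. Acta2 moves from -0.82 to -0.28 without those cells, Tagln stands at -0.79, and Cyr61, Ctgf and Amotl2 stay above 0.

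In T-like cells, 17 of the genes were counted in D+F against control, with a median of 0.20, and none was at least 1.5-fold higher and 1 lower (Actn1, -0.61, -1.55 to 0.46), where 13.3% of all genes were higher and 13.8% lower. In D+F+P against aPD-1, of 22 genes with a median of -0.03, 3 were higher and 1 lower, where 13.9% and 3.02% of all genes were. These were Srf (1.28, 0.57 to 2.06; 9.99, 6.46, 15.2 and 15.7 CPM), Lats2 (1.27, 0.35 to 2.31), Vcl (0.73, 0.05 to 1.46) and, lower, Pdlim7 (-0.71, -1.20 to -0.22). Each rests on 12 to 89 UMIs per library, and the T-like cells of D+F+P differed in depth and ribosomal share as given above.

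Tagln2 in T-like cells was highest in control, with ratios against it of -0.68 (-0.88 to -0.48) in aPD-1, -0.35 (-0.55 to -0.14) in D+F and -0.69 (-0.88 to -0.49) in D+F+P. The order of libraries was not that of melanoma-like cells, since D+F lay above aPD-1. The NK markers, summed, stood at 1443, 397, 323 and 463 CPM in T-like cells, with 5 to 7 of 7 detected, and the dendritic cell markers at 504, 98.8, 155 and 67.7 CPM, with 4 to 6 of 8 detected. Their part in the Tagln2 levels was not tested. Zyx was higher in aPD-1 than in control (0.73, 0.26 to 1.24; 190, 314, 239 and 268 CPM) and Lmna lower (-0.97, -1.73 to -0.12). Actn1 (-1.04, -1.92 to 0.00) and Pdlim7 (-1.36, -2.48 to 0.00) were lower in D+F+P than in control, on 11 and 7 control UMIs. Both turned when every cell was weighted equally. Of the pathway genes in D+F+P against aPD-1, Rhob was highest (1.49, 0.90 to 2.13), followed by Lats1 (0.65) and Itgb1 (0.49), and Msn (-0.33), Ezr (-0.29) and Arhgef2 (-0.21) were lowest. In D+F against control Mob1b (0.88), Rock1 (0.87) and Pxn (0.82) were highest and Ppp1r12a (-0.56), Rdx (-0.45) and Vgll4 (-0.44) lowest, and of these only the interval of Ppp1r12a excluded 0.

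In monocyte/macrophage-like cells Zyx stood at 266, 430, 438 and 636 CPM, lowest in control and highest in D+F+P, with 0.72 (0.18 to 1.29) in D+F against control and 1.26 (0.73 to 1.81) in D+F+P against control. At 1000 UMIs per cell the ratio against control was -0.17 in aPD-1, -0.027 in D+F and 0.29 in D+F+P, so control was not lowest at equal depth. Of 14 genes counted in D+F against control, 2 were at least 1.5-fold higher (Zyx and Tpm4) and none lower. Of all genes, 17.8% were higher and 16.4% lower. The median of the 14 was 0.24, beside -0.01 for all genes, and it was -0.18 at 1000 UMIs per cell. In D+F+P against aPD-1, 2 of 16 were higher, Cnn3 (1.5, 0.64 to 2.36) and Tpm4 (0.62, 0.08 to 1.13), and none lower, where 10.8% and 13.1% of all genes were. Tpm1 was lower in aPD-1 than in control (-1.52, -2.30 to -0.74; 173, 60.0, 49.1 and 52.5 CPM), but the ratio was 1.43 at 1000 UMIs per cell. The control cells of this class were those with pigment genes at 28.8% of the melanoma level. The part of melanoma RNA in that difference was not tested. Myh9 stood at 379, 266, 456 and 263 CPM, lower in D+F+P than in D+F by -0.80 (-1.31 to -0.29) on the log2 scale. Of the pathway genes, Diaph1, a formin, was highest in D+F against control (1.08, 0.16 to 2.11), followed by Msn (0.34) and Ezr (0.11), with Myl6 (-0.52), Myl12b (-0.37) and Myl12a (-0.28) lowest. In D+F+P against aPD-1 Itgb1 (1.03), Diaph1 (0.71) and Ppp1r12a (0.62) were highest and Ezr (-0.22), Myl12b (-0.01) and Rhoa (0.05) lowest.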

How the data were processed

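The values the authors deposited are raw UMI counts, 1 matrix per library, with no normalization, per the file headers. Per the submitters' processing notes, the authors used Cell Ranger 3.1.0 on GRCm38 (mm10). The annotation release is not given in the sources used here. A barcode was dropped under 300 genes or 500 UMIs, or above 20% mitochondrial UMIs. Scrublet called 46 of 9461 (0.486%) as doublets; these were removed, but a rate under 0.5% was taken to mean that the caller had not worked, so doublets remain. Scanpy 1.11.5 clustered the cells (2000 variable genes, the 32 genes left out of them, 30 components, 15 neighbours, Leiden resolution 1). Clusters were named from fixed markers, and thin clusters stayed unnamed. UMIs were summed per class and library and divided by the class total (CPM). Ratios carry exact conditional binomial intervals. A gene needed 50 UMIs in the pair and a class 20 cells in both libraries. The ratio code was tested on simulated data. Ctgf and Cyr61 are Ccn2 and Ccn1 in newer tables. All 32 genes are named; of the 41 pathway genes, the 3 highest and 3 lowest per class in D+F against control and D+F+P against aPD-1. The genes and lists were chosen with earlier results of these data known.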

Additional observations from a re-analysis of the deposited data

How the results depend on the processing

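No paired analysis was possible because each group has 1 library. Of 120 values of the 10 list medians under alternative settings, 112 stayed within a range set by the genes' own intervals. That range ran from the median of their lower bounds to the median of their upper bounds. It describes a typical single gene and not the error of a list median, so a value could stay within it and change sign. In melanoma-like cells without a cycling gene UMI the median was -0.18 in aPD-1, -0.22 in D+F and -0.38 in D+F+P against control, and -0.25 in D+F+P against aPD-1. The D+F+P median against control was -0.053 with median-of-ratios scaling, -0.064 with every cell weighted equally and -0.083 with a minimum of 1 UMI per library. In fibroblast-like cells the D+F+P median against aPD-1 was -0.72 at 1000 UMIs per cell. The monocyte/macrophage-like median in D+F against control changed sign at that depth, from 0.24 to -0.18. It still counted as within its range (-0.23 to 0.67). Of 383 values of the 41 ratios of single genes past 1.5-fold, 330 stayed within their intervals, 41 moved outside them with the same sign and 12 changed sign. At 1000 UMIs per cell these were, in melanoma-like cells, Acta2 in aPD-1 against control (-1.21) and Ctgf in D+F+P against aPD-1 (-0.53); in monocyte/macrophage-like cells, Tpm1 (1.43) and Zyx (-0.17) in aPD-1 and Zyx (-0.027) in D+F against control; and in fibroblast-like cells, Cnn2 (0.048), Tpm1 (-0.045) and Vcl (-0.082) in D+F+P against aPD-1. Without cycling cells, Acta2 in aPD-1 (-0.18) and Cyr61 in D+F+P (-0.17) against control changed sign. With every cell weighted equally, Actn1 (0.23) and Pdlim7 (0.10) in T-like cells of D+F+P against control did. The causes were not tested. Thinning leaves few UMIs of each rare gene. Leaving out the low-ribosomal melanoma-like cluster, or counting the unnamed myeloid clusters, were chosen after seeing the data. Monocyte/macrophage-like cells in comparisons with control at 2000 UMIs and 1000 genes, and fibroblast-like cells without those under 10% ribosomal UMIs, were too few for a value.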

Other observations

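NK-like cells, 42, 92, 77 and 331 in the library order of the report, were not among the classes compared. Their Tagln2 level was 1369, 902, 963 and 859 CPM, with control highest. Their Actb level was 6915, 9146, 8909 and 7710 CPM, and they held 1.18, 1.42, 1.54 and 1.59 Actb UMIs per Actg1 UMI. Acta2 and Cnn1 gave no UMI in NK-like cells of any library, and Pdlim5, a PDZ and LIM domain protein, stood at 13.1, 23.7, 48.8 and 79.1 CPM on 2, 5, 8 and 45 UMIs. NK-like cells of D+F+P had a median of 732 UMIs, and 71.9% of them were under 10% ribosomal protein UMIs.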
